A study of Mus musculus with 6 samples.

Results

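Small RNA was sequenced from vesicles that osteoblasts, the bone-forming cells, release while dying by apoptosis. The entries described here are those of 3 miRNAs that stood higher in the vesicles of Sirt6 knockout mice: miR-6715, miR-8099 and miR-878. The miRNAs were chosen by their higher RPM values in the knockout libraries, so that difference is not a finding here. Every entry of the deposited table carrying one of these names was taken, with any arm suffix, which gave 5 of 1712 entries: mmu-miR-6715-3p, mmu-miR-6715-5p, mmu-miR-8099, mmu-miR-878-3p and mmu-miR-878-5p, written without the species prefix below. The knockout group held 3 libraries from Prx1cre;SIRT6f/f mice, in which both Sirt6 alleles are floxed and Cre is driven by a Prx1 enhancer active in the limb mesenchyme. The control group held 3 libraries from SIRT6f/f mice, which carry the same floxed alleles without Cre. Osteoblasts of both genotypes were kept in serum-free medium for 48 hours after apoptosis was induced, and their vesicles were pelleted at 100000 x g. The ages of the mice, and whether replicates came from separate animals or cultures, are not given in the labels used here, so the spread between replicates may be technical. Sirt6 encodes a histone deacetylase, whose loss cannot be checked in a table of small RNAs.

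A miRNA is cut from one side, or arm, of an RNA hairpin: Drosha releases the hairpin in the nucleus and Dicer removes its loop, which leaves a short duplex of the 5p and 3p arms. One arm is usually kept by an Argonaute protein, which it guides to mRNAs through its seed, bases 2 to 8, while the other is mostly degraded. The mouse gene of miR-878 belongs to a group of X-linked miRNA genes between Slitrk2 and Fmr1, best known for its expression in the testis. miR-6715 and miR-8099 were named from sequencing surveys.

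The mature sequences are shown because the names rest on them, in RNA letters from 5′ to 3′ with the seed in capitals, from RefSeq on GRCm38.p6. All 5 entries matched a RefSeq sequence, as did 1304 of the 1528 annotated entries.
miR-6715-3p: cCAAACCAggcgugccugugg
miR-6715-5p: aCAGGCACcacagguuugagcau
miR-8099: cCAAGGCGugggaaagguugu
miR-878-3p: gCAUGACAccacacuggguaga
miR-878-5p: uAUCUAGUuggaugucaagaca
No seed was shared within the set, and for each of them 0 other mature sequences in the RefSeq table had the same seed. miR-6715-3p and miR-8099 shared a stretch of 7 bases, AGGCGUG, which begins at base 8 of miR-6715-3p and at base 4 of miR-8099. Of the 1304 sequences, 2 (0.153%) held it, which are those of miR-6715-3p and miR-8099. miR-878-3p and miR-6715-5p shared CACCACA, which 6 of the 1304 sequences held. These stretches were looked for on the strand of the mature RNA. Each was picked because entries of the set share it, so the counts include those entries and are not a test.

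The miR-6715 hairpin lies on chromosome 19 (chr19:55192678-55192734, plus strand, GRCm38), inside Tectb and on its strand. Tectb encodes beta-tectorin, a protein of the tectorial membrane of the inner ear. In the GENCODE M21 annotation the first 13 bases of the hairpin overlap the end of coding exon 4 of one Tectb transcript. The whole hairpin lies in exon 2 of a Tectb transcript without a coding sequence, and in introns of the other coding transcripts. miR-8099 has 2 hairpin genes with identical sequences, so its reads cannot be assigned to one of them. Mir8099-1 (chr3:95139060-95139186, minus strand) lies opposite the 3′ untranslated part of exon 3 of Lysmd1. Mir8099-2 lies between genes on chromosome 12, with its mature sequence at chr12:93927373-93927393 on the plus strand, 529 bases from the pseudogene Gm9726. The miR-878 hairpin (chrX:66801508-66801585, minus strand) overlaps no other gene and is flanked by Mir881 at 359 bases and Mir880 at 901 bases.

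The hairpins of miR-6715 and miR-878 follow with both annotated arms in capitals, since the question is whether each entry has the shape of a processed arm.
Mir6715: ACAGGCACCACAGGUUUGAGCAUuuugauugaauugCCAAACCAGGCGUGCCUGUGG
Mir878: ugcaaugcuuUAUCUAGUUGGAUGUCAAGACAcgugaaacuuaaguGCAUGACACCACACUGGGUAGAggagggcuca
The predicted fold of the 57-base miR-6715 hairpin had an energy of -26.1 kcal/mol, and 16 of the 21 bases of miR-6715-3p were paired. That of the 78-base miR-878 hairpin had -29.9 kcal/mol, and 20 of the 22 bases of miR-878-3p were paired. At both ends of such a duplex the enzymes leave a short 3′ overhang. In the annotated miR-6715 duplex the 3p arm extended 2 bases and the 5p arm 3 bases past the facing arm, and in that of miR-878 these were 2 bases and 1 base. Overhangs of 1 to 3 bases at both ends were found in 380 of the 604 hairpins with a listed arm in which both ends of the duplex could be read from the fold (62.9%). The 127-base miR-8099 hairpin had -41.9 kcal/mol, and 16 of the 21 bases of miR-8099, which is on its 5′ side, were paired. The RefSeq table gives no second arm for it. The stretch that faces miR-8099 in the fold is shown in its place, for the copy at chr12:93927409-93927427, with its 16 paired bases in capitals.
miR-8099 facing stretch: ACAACUgagUCCCACCCUU
Per base, the energies were -0.46 for miR-6715, -0.38 for miR-878 and -0.33 kcal/mol for miR-8099, against a median of -0.41 over 871 hairpins with a listed arm. By this measure 28.2% of those hairpins were more stable than miR-6715, 62.2% more stable than miR-878 and 80.0% more stable than miR-8099. The annotated lengths also differ: 95.5% of the hairpins were longer than that of miR-6715, 49.3% than that of miR-878 and 2.30% than that of miR-8099. The part of the annotated length in the energy per base was not tested.

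Levels are RPM, reads scaled by the authors to the same total in each library. In each library the values move in equal steps, and the smallest value above 0 equals 2 steps, which is taken here as 2 reads. On that reading the libraries held 1608276 to 1838239 reads in the knockout and 1352045 to 1627705 reads in the control group, and 3 reads correspond to 1.63 to 2.22 RPM. No value stood at 1 read, so a 0 may hide 1 read. Reads carry no molecular tags, and intervals below cover counting error only.

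miR-6715-3p had 216, 176 and 134 RPM in knockout replicates 1, 2 and 3, against 69.9, 14.8 and 45.5 RPM in control replicates 1, 2 and 3. All knockout libraries lay above all control libraries, and the lowest of all was control replicate 2, where the value rests on 20 reads. The means were 175 ± 41.3 RPM in knockout and 43.4 ± 27.6 RPM in control vesicles (SD, n = 3 each).

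miR-8099 had 223, 173 and 195 RPM in the knockout libraries, against 71.4, 35.5 and 38.1 RPM in the control libraries. The groups did not overlap, and the lowest knockout library had 2.43 times the level of the highest control library. The means were 197 ± 24.96 RPM in knockout and 48.3 ± 20.0 RPM in control vesicles (SD, n = 3 each).

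miR-878-3p was the most abundant of the set, with 579, 638 and 744 RPM in the knockout libraries, against 417, 271 and 165 RPM in the control libraries. The groups did not overlap here either, but control replicate 1 came closer, and the lowest knockout library had 1.39 times its level. The means were 654 ± 83.8 RPM in knockout and 284 ± 126 RPM in control vesicles (SD, n = 3 each).

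The partner arms were almost absent. miR-6715-5p had 1.24 RPM, or 2 reads, in knockout replicate 1 and was listed at 0 in the other 5 libraries. miR-878-5p was listed at 0 in all knockout libraries and had 1.23 RPM, or 2 reads, in control replicate 3. Neither arm could be compared between the genotypes at this depth.

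**Figure D1:**
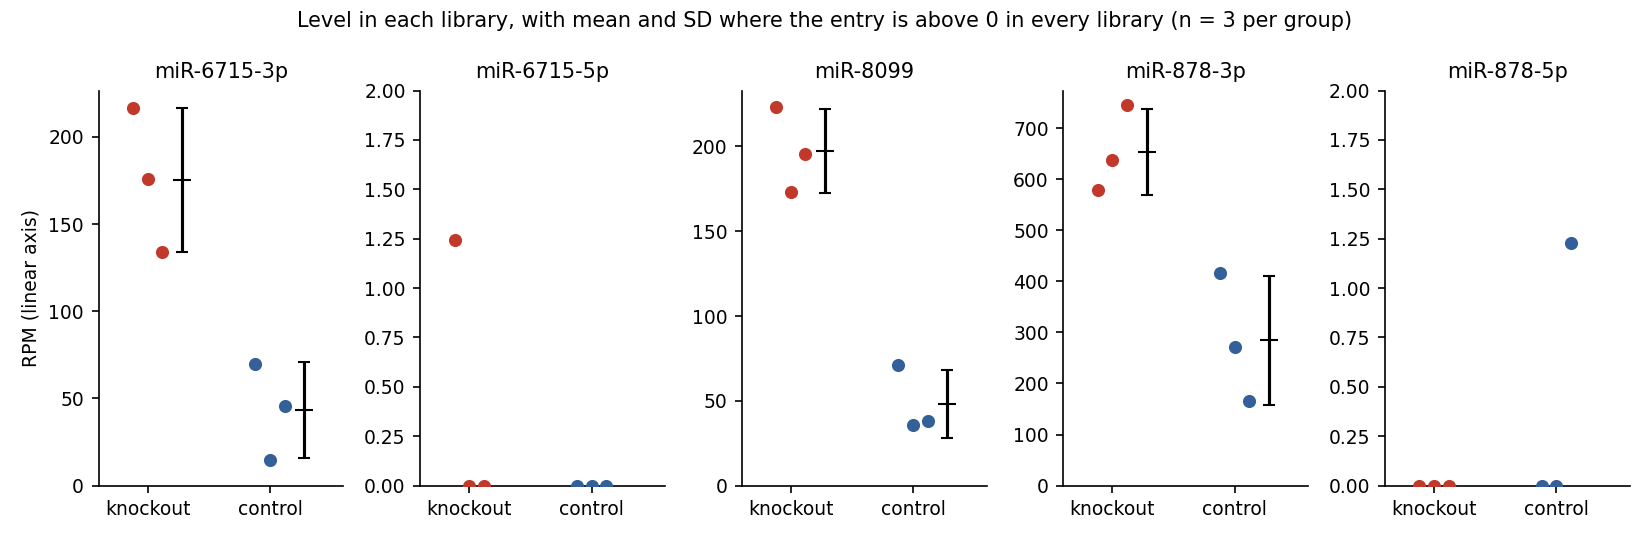
Level in RPM (linear axis from 0) of each of the 5 entries in each library, with knockout libraries in red and control libraries in blue, and the mean and SD (n = 3 per group) for the entries above 0 in every library. miR-6715-3p, miR-8099 and miR-878-3p show no overlap between the groups, while miR-6715-5p and miR-878-5p are above 0 in 1 library each.

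The spread between replicates was larger than counting error. For miR-6715-3p the SD was 23.5% of the mean in the knockout and 63.7% in the control group, while the counting error of single libraries was 5.36% to 6.38% in the knockout and 10.2% to 22.4% in the control group. For miR-8099 the SDs were 12.7% of the mean in the knockout and 41.4% in the control group, and for miR-878-3p 12.8% and 44.4%, in the same order. Ranked by their mean over the 6 libraries among 1528 annotated entries, miR-878-3p was in place 67, miR-8099 in place 119 and miR-6715-3p in place 123. The last pair differed by less than their spread: the ratio of miR-6715-3p to miR-8099 was 0.969, 1.01 and 0.685 in the knockout libraries, against 0.9798, 0.417 and 1.19 in the control libraries. The ratio of miR-878-3p to miR-8099 was 2.59, 3.68 and 3.81 in the knockout libraries, against 5.84, 7.65 and 4.34 in the control libraries. The ratio of miR-878-3p to miR-6715-3p was 2.68, 3.63 and 5.56 in the knockout libraries, against 5.96, 18.3 and 3.64 in the control libraries. The groups did not overlap in the ratio to miR-8099 and overlapped in the ratio to miR-6715-3p, and neither difference was tested.

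Because the set was chosen for its rise between these genotypes, the fold changes describe it and were not used as a test. On the log2(RPM + 1) scale, knockout over control, the fold change was 2.21 ± 0.34 (SE) for miR-6715-3p, 2.07 ± 0.33 for miR-8099 and 1.29 ± 0.29 for miR-878-3p. These SEs come from the mean-variance trend over all tested entries and not from the replicates of each entry. Without the trend they were 0.59, 0.45 and 0.47, in the same order. The fold changes stood in places 5, 9 and 44 among 1114 tested entries, those with at least 1 RPM in at least 3 libraries, whose median was -0.27. Of the 5 entries 3 passed this filter, and all 3 were past the limma threshold (adjusted p under 0.05) on the higher side, where 24 entries (2.15%) were called in all; in either direction 54 entries (4.85%) were called. When limma was run without its mean-variance trend, none of the 3 passed and 0 entries were called, while 55 were higher and 75 were lower at a limma p under 0.05 before adjustment. The knockout libraries lay above all control libraries for the same 3 entries and for 70 tested entries in all (6.28%), or 36 of the 354 with a mean of at least 10 RPM (10.2%). Without control replicate 2, whose level was the lowest, the value of miR-6715-3p was 1.59. Without control replicate 3, whose level was the lowest for miR-878-3p, the values were 2.37 for miR-6715-3p, 1.94 for miR-8099 and 0.95 for miR-878-3p, and 0 entries of the table passed (53 higher and 84 lower at an unadjusted limma p under 0.05). Without control replicate 2 or without knockout replicate 2, miR-878-3p did not pass, with values of 1.30 in both cases.

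**Figure D2:**
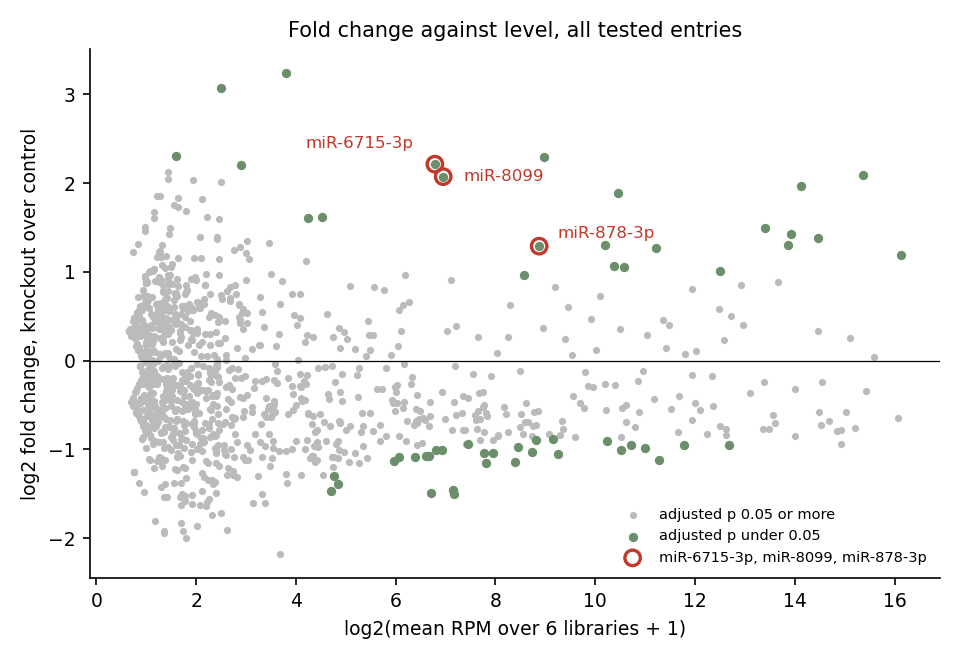
Log2 fold change on the log2(RPM + 1) scale, knockout over control, against the level of each of the 1114 tested entries, given as log2 of the mean RPM over the 6 libraries plus 1. Entries with an adjusted p under 0.05 are green, the others grey, and red circles mark miR-6715-3p at 2.21, miR-8099 at 2.07 and miR-878-3p at 1.29.

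Since RPM are shares of the listed reads, the rest of the library bears on them. Entries without a miRNA name took 52.8% to 62.8% of reads in the knockout and 43.1% to 50.01% in the control libraries. The 20 mesenchymal miRNAs set out as markers of the osteoblast lineage, such as miR-199a and miR-214, were abundant: 19 were listed, with totals of 116852 to 207777 RPM in the knockout and 264701 to 299553 RPM in the control libraries. By limma 0 of them were higher and 4 lower (adjusted p under 0.05), or 0 and 12 at an unadjusted p under 0.05. Over all tested entries 2.15% were higher and 2.69% lower at the adjusted threshold, and 5.39% higher and 14.6% lower at the unadjusted one. In the blood list 0 of 7 tested members were higher and 2 lower at the adjusted threshold, or 0 and 5 at the unadjusted one. Totals of the blood list (8 of 9 listed) were 263 to 485 RPM in the knockout and 630 to 888 RPM in the control libraries, and those of the endothelial list (4 of 4) 23.4 to 52.2 and 85.1 to 105 RPM, in the same order. The epithelial (7 of 7 listed), muscle (3 of 6), neural (2 of 6) and liver (4 of 4) lists had totals of at most 435 RPM in any library. In these 4 lists and the endothelial list 0 members were called by limma, and at an unadjusted p under 0.05 3 of 4 tested endothelial, 1 of 2 neural and 1 of 4 liver members were lower. The part of these shifts in the levels of the 3 entries was not tested, and in a pooled preparation fewer vesicles or cells of a type and less RNA per vesicle or cell cannot be told apart. When the libraries were scaled to annotated entries only, the fold changes were 2.49 for miR-6715-3p, 2.35 for miR-8099 and 1.57 for miR-878-3p, and the median of all tested entries was -0.07.

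**Figure D3:**
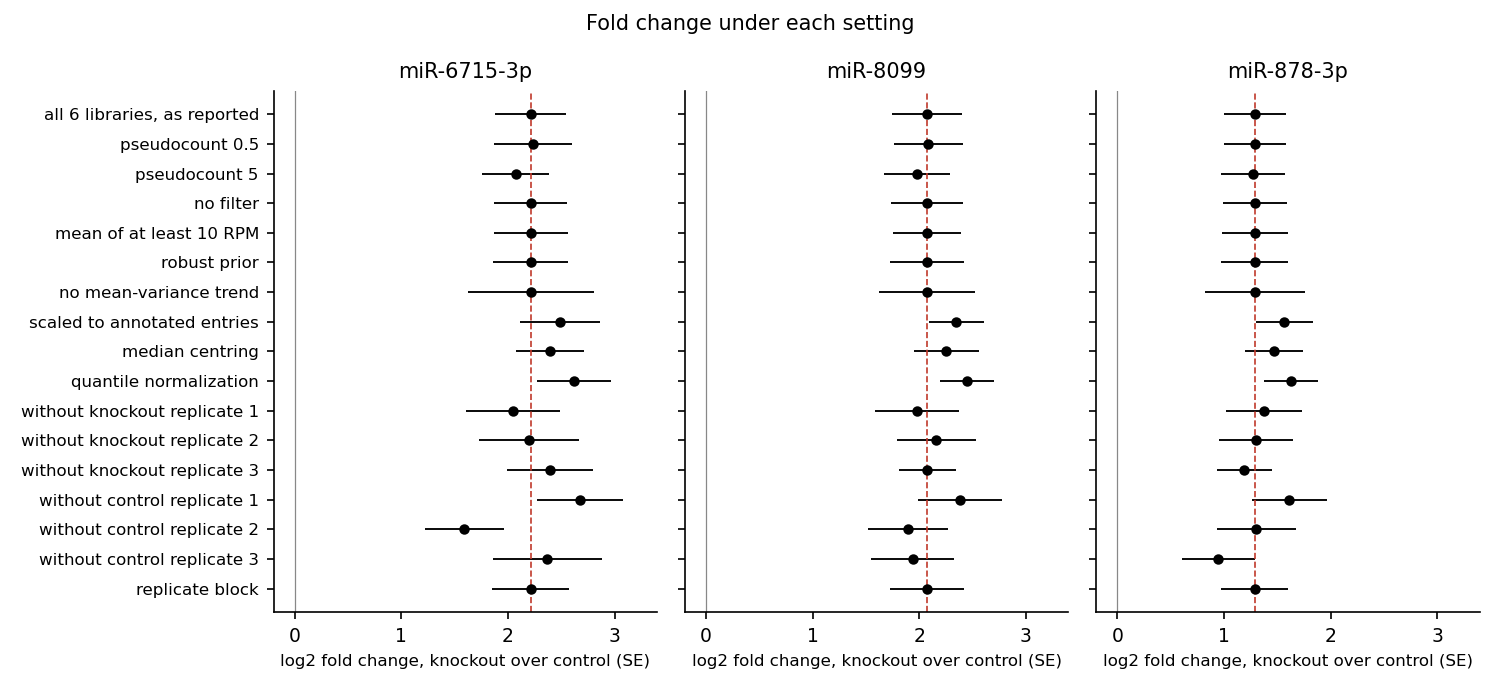
Log2 fold change with SE of miR-6715-3p, miR-8099 and miR-878-3p, knockout over control, under each setting, with the reported value as a red dashed line and 0 as a grey line. Each value is above 0, from 1.59 to 2.68 for miR-6715-3p, 1.89 to 2.45 for miR-8099 and 0.95 to 1.63 for miR-878-3p.

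The imbalance between arms was strong for both hairpins with an annotated pair. Over the knockout libraries, miR-6715-5p made up 2 of 907 reads of its hairpin (0.221%, exact 95% binomial interval 0.0267% to 0.794%), and over the control libraries 0 of 191 reads. miR-878-5p made up 0 of 3428 reads in the knockout libraries and 2 of 1216 reads in the control libraries (0.164%, interval 0.0199% to 0.593%). Since a library listed at 0 may hold 1 read that is not listed, no upper limit is given for the shares of 0. The same holds for the 2 intervals, each of which rests on reads of 1 library beside libraries listed at 0. Their limits may therefore be too low. For comparison, 80 hairpins had both annotated arms in the table and at least 100 RPM in the higher arm. Their median share of the lower arm was 0.427%, and in 18 of them (22.5%) the lower arm averaged under 1 RPM. Ordered by that share from the smallest, miR-878 was in place 8 and miR-6715 in place 29. Each of these places rests on 2 reads of the lower arm in 1 library. Over all libraries miR-6715-5p made up 0.182% of reads (exact 95% binomial interval 0.0221% to 0.656%), an interval that contains the median of 0.427%. For miR-878-5p it was 0.0431% (0.00522% to 0.155%). These limits may be too low for the same reason as above. The 3p arm was the higher one in 35 of the 80. A further 15 hairpins at that level had an arm without an entry and were left out, since their share is not known. Any of these with a smaller share would move miR-878 and miR-6715 further from the first place, so the places hold among the 80 only. Among the 80, hairpin copies with a shared higher arm were counted separately, each with the full level of that arm. Their shares may therefore be too low. The 2 copies of miR-26a, at 0.00155% and 0.00126%, were placed ahead of miR-878 in this way. The table gives 1 value per entry and no read positions, so how precisely the reads start and end, the other sign of a processed arm, was not analysed here.

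**Figure D4:**
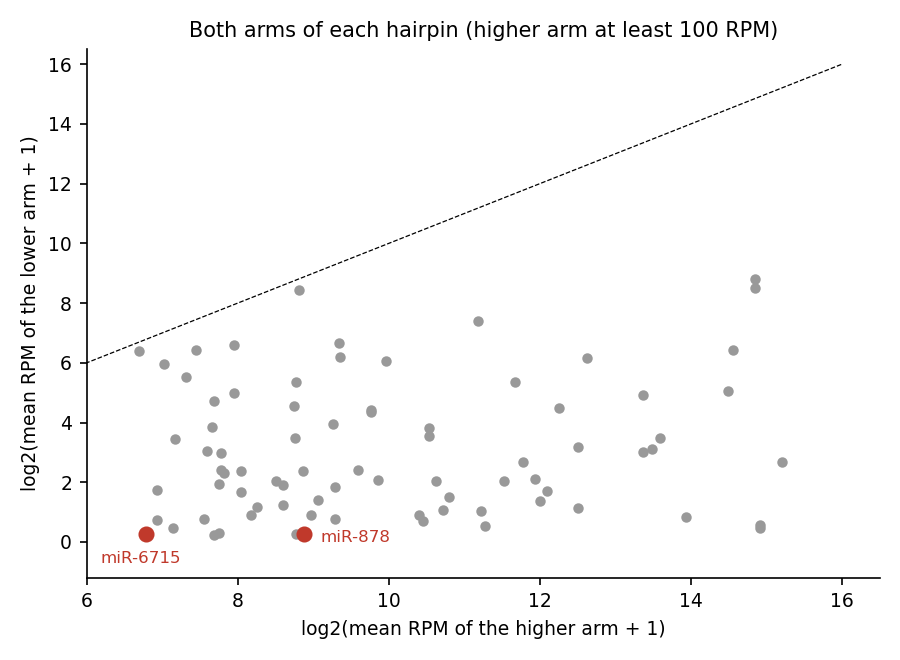
Level of the lower arm against that of the higher arm, each as log2 of the mean RPM over the 6 libraries plus 1, for the 80 hairpins with both arms in the table and a mean of at least 100 RPM in the higher arm. The dashed line marks equal arms. miR-6715 and miR-878 (red) lie near 0 on the vertical axis, and the other hairpins (grey) spread from there up to the dashed line.

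The mature sequences were then compared with all GENCODE M21 transcripts on the sense strand. miR-878-3p and miR-878-5p matched their own hairpin and no other transcript exactly, and miR-8099 matched its 2 hairpin copies. miR-6715-3p and miR-6715-5p matched their hairpin and the Tectb transcript that contains it. With 1 or 2 mismatches there was no match for any of them. With 3 mismatches miR-878-3p had no match, and the 4 matches of miR-8099 were in the mRNAs of Abca3 and Npc1l1. miR-6715-3p had matches with 3 mismatches in Vamp1, in Eif4a1 and in Gm24029, a small nucleolar RNA of 143 bases that lies within Eif4a1. Small nucleolar RNAs guide the modification of ribosomal and other RNAs. The site in Gm24029 (chr11:69667890-69667910, minus strand) is shown in DNA letters because it shares 16 bases in a row with miR-6715-3p, with matching bases in capitals.
Gm24029 site: gaAAACCAGGCGTGCCTGaGG
Counted from the 5′ end of miR-6715-3p, in DNA letters, the differences were C1G, C2A and T19A. Among the 1304 mature sequences, 50 (3.83%) came within 3 mismatches of one of 3907 small nucleolar, small nuclear, ribosomal, mitochondrial and other small RNA transcripts of the annotation. The median was 6 mismatches, the number found for miR-8099, while miR-878-3p had 7. Only transcripts in this annotation were searched, so RNAs of any class that are missing from it are not covered by these numbers. The mismatches allowed by the authors' aligner are not stated in these sources, and whether reads of Gm24029 entered the miR-6715-3p value was not tested.

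miR-878 stood apart from its X-linked neighbours in level. Within 50 kb on the same strand there were 18 other miRNA hairpins, of which 15 had a listed arm, and 14 of these 15 averaged under 5 RPM in both groups. The adjacent Mir881 reached at most 1.09 RPM in a knockout and 1.44 RPM in a control library, and Mir880 reached 2.18 RPM in a knockout library and was listed at 0 in all control libraries. The exception was miR-471-3p, which had 15.5, 16.9 and 15.2 RPM in the knockout libraries, against 6.49, 11.8 and 6.76 RPM in the control libraries. Its groups did not overlap, but the fold change of 0.90 ± 0.50 on the log2(RPM + 1) scale did not pass (limma adjusted p = 0.306). Of 38 other arms of the X-linked group that were looked up by name, 21 were listed, 6 were tested, and 0 were called higher or lower by limma, at an adjusted or an unadjusted p under 0.05. Over all tested entries these shares were 4.85% and 20.0%, and 0 of 6 is near them. The groups overlapped for the other tested arms with a mean of at least 1 RPM. miR-743a-3p had 1.87, 2.26 and 10.3 RPM in the knockout libraries, against 0, 0 and 4.91 RPM in the control libraries, so that replicate 3 was the highest in both groups. miR-470-5p had 1.24, 2.82 and 2.18 RPM in the knockout libraries, against 5.77, 3.70 and 1.84 RPM in the control libraries. The median of the 6 was 0.02, beside -0.27 over all tested entries. The 21 listed arms together had 21.8 to 39.7 RPM in the knockout and 17.0 to 28.8 RPM in the control libraries. Of 7 miRNAs set out as testis markers, 5 were listed, 4 tested and 0 called by limma, also at an unadjusted p under 0.05, beside the same 4.85% and 20.0% over all tested entries, and most of their total of 2163 to 3429 RPM in the knockout and 3574 to 4021 RPM in the control libraries was miR-34c-5p, which other tissues also express.

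**Figure D5:**
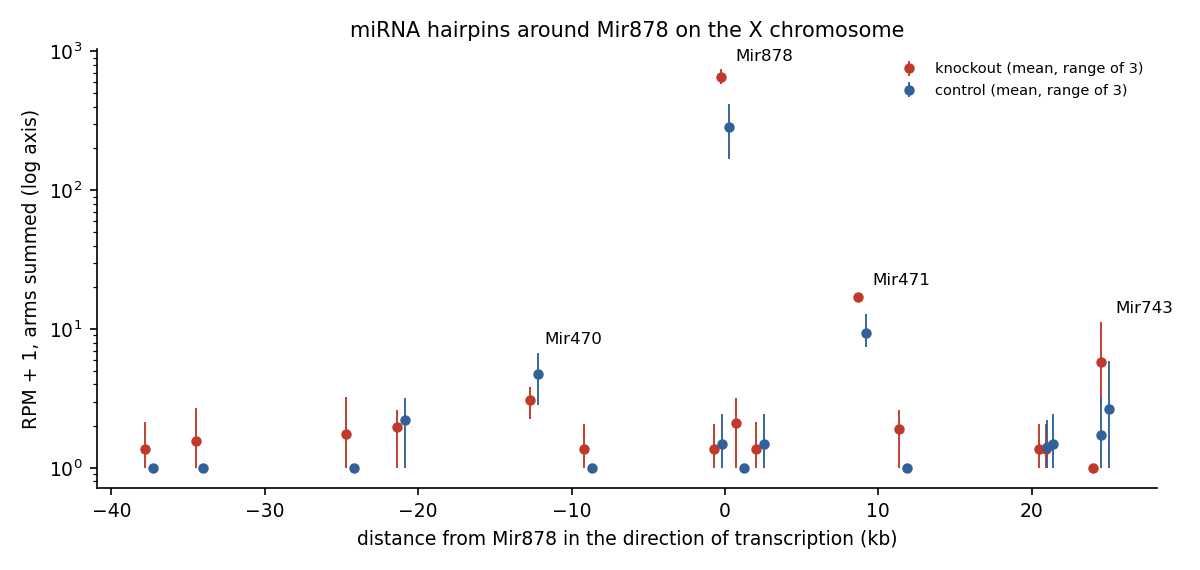
Level of each miRNA hairpin with a listed arm within 50 kb of Mir878 on its strand, as RPM plus 1 with arms summed (log axis), against distance in kb in the direction of transcription; points are means and lines the range of 3 libraries, with knockout in red and control in blue. Mir878 stands at 654 RPM in knockout and 285 RPM in control vesicles, and the next highest, Mir471, at 15.9 and 8.36 RPM in the same order.

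The annotated entries most like each of the 3, of 273 others with a mean of at least 10 RPM, were found by Pearson's r of log2(RPM + 1) over the 6 libraries. The difference between the genotypes is part of this measure, and the libraries share their depth and composition, so it is a description. For miR-8099 they were miR-6239 (r = 0.996), miR-6236 (0.994) and miR-6937-5p (0.984). Taken as deviations from each group's mean, which leaves that difference out, r was 0.977, 0.9502 and 0.823 for the same entries. The entries were picked by the first r, which also holds these deviations, so the second r is not a separate check. For miR-6715-3p the most similar entries were miR-6239 (0.947), miR-8099 (0.932) and miR-5099 (0.928), with 0.804, 0.748 and 0.738 as deviations. For miR-878-3p they were miR-494-3p (0.941), miR-96-5p (0.9395) and miR-6236 (0.935), with 0.788, 0.764 and 0.752. A high r does not mean a change of the same size. On the log2(RPM + 1) scale, knockout over control, the fold change was 0.34 for miR-96-5p and 0.81 for miR-5099. For miR-6937-5p, miR-6239, miR-494-3p and miR-6236 it was 1.27 to 1.96. The deviations of miR-878-3p and miR-6715-3p had an r of 0.14. miR-6239 averaged 32487 ± 1751 RPM in knockout and 12861 ± 4328 RPM in control vesicles (SD, n = 3 each), and miR-6236 averaged 28386 ± 5045 RPM in knockout and 7596 ± 3238 RPM in control vesicles.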

How the data were processed

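The values are RPM, which the authors deposited for 6 libraries and 1712 entries, of which 1528 have a mouse miRNA name. The tools fastp and edgeR appear in the submitters' processing notes without a role or version. Aligner, miRNA release and build: not given in the sources used here. The deposited RPM values were tested as log2(RPM + 1) with limma 3.58.1 (R 4.3.3) and a mean-variance trend over 1114 entries with at least 1 RPM in at least 3 libraries, 2-sided, with Benjamini-Hochberg adjustment and a threshold of 0.05; the whole weight of the variance went to the trend. The fit was tested on simulated data. Hairpins were folded with RNAfold 2.7.2, and sequences came from RefSeq (GRCm38.p6) and GENCODE M21 (GRCm38) by name. Counts recovered from the RPM steps have no entry at 1 read and may not be complete, so no count test was run, unlike planned. The members, lists and rules for named entries (the members, same-seed entries, X-linked arms and the 3 most similar entries each) were chosen with earlier results of these data known.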

Additional observations from a re-analysis of the deposited data

How the results depend on the processing

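The direction of miR-6715-3p, miR-8099 and miR-878-3p held in all 16 alternatives, and of these 14, 14 and 12 kept the entry past the threshold. The 3 were chosen for their rise and their groups did not overlap, so leaving a library out could not reverse the direction. Changing only the filter, the variance model or the block leaves the fold change itself the same. The kept direction is therefore a description and not a check of the rise. The same holds for the counts of 14, 14 and 12, since every alternative used the libraries in which the entries were chosen. Without a mean-variance trend and without control replicate 3 none of the 3 passed. The count of called entries, 54 (24 higher, 30 lower), depended more on the settings. It was 98 (27 and 71) among entries averaging 10 RPM or more, 33 (28 and 5) scaled to annotated entries, and 0 without the trend (55 higher and 75 lower at an unadjusted limma p under 0.05). Lower entries numbered 15 with a pseudocount of 0.5, 15 with no filter, 17 with a robust prior, 8 with median centring and 16 with quantile normalization; the cause was not tested, except that these last 2 and the scaling to annotated entries moved the median from -0.27 to -0.08, -0.05 and -0.07. With a library left out the count was 0 to 41 (0 to 26 higher, 0 to 18 lower): 36 without knockout replicate 1, 20 without knockout replicate 2, 41 without knockout replicate 3, 21 without control replicate 1, 6 without control replicate 2 and 0 without control replicate 3. With the replicate number as a block it was 30 (19 and 11). The correlation of deviations of same-numbered libraries was 0.0055, -0.024 and 0.011, so no shared effect of the number was seen. Whether same-numbered libraries were prepared together is not given in the labels. Matching the first 18 bases, an alternative added after seeing the data, gave the same transcripts. The planned edgeR and DESeq2 alternatives were not run, since the reads recovered from the RPM steps may not be complete counts, and matches to a genome were not analysed here.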
